A study of Schmidtea mediterranea with 100 samples.

Results

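Mediator is the large protein complex that passes signals from DNA-bound transcription factors to RNA polymerase II. In yeast and mammals it is built from a head, a middle and a tail, to which a kinase module can bind and from which it can come off. The head and middle contact the polymerase, the tail is a main landing site for transcription factors, and the kinase module holds the kinase CDK8. The genes described are 6 subunit genes of the planarian flatworm Schmidtea mediterranea, chosen as the rows named Med1, Med7, Med8, Med12, Med23 and Med27 in both count tables. All 6 were found, out of 67386 transcripts in the bulk table and 38237 in the single-cell table, of which 163 and 135 carry a gene name. The same tables name 4 other Mediator genes, Med14, Med19, Med31 and cdk8, which are given beside them.

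The samples were cells sorted by FACS from dissociated animals of the asexual, clonal CIW4 strain, after staining DNA with Hoechst and RNA with pyronin Y. There was 1 bulk library for each of 4 gates, S/G2/M, RNA-low, G1 and PM, and there were 96 single RNA-low cells. What PM stands for is not given in the labels. No animals, pools or plates are named either, so the 96 cells count as 1 sample. All groups share the strain, the stain and the sort, and no group was treated or mutant. The series title names slow-cycling neoblasts, the adult planarian stem cells, that respond to TOR. The bulk libraries held 47338591 to 74968402 reads, which were estimated to stand for 1893544 starting fragments in PM, 3569924 in S/G2/M, 6007842 in G1 and 11477133 in RNA-low. Levels are in CPM, reads of a transcript scaled to a fixed library size, with libraries scaled by the trimmed mean of M values (TMM), and are not per cell. Brackets after a level hold its 95% Poisson interval on estimated fragments, which covers counting error only. With 1 library per gate there is no replicate check and no test between gates.

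Across the gates the 6 subunits did not move as one. Med12 and Med1 were lowest in S/G2/M and highest in RNA-low. Med8, Med7 and Med27 were highest in S/G2/M. Med23 was highest in G1. The 6 were proposed with their direction in S/G2/M already known, so this division is a description. Of 13992 transcripts with at least 5 CPM in a gate, 34.3% were highest in S/G2/M, 30.6% in RNA-low, 12.5% in G1 and 22.6% in PM. The lowest gate was S/G2/M for 34.3%, RNA-low for 19.6%, G1 for 8.45% and PM for 37.6%, so neither place is rare for S/G2/M.

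**Figure D1:**
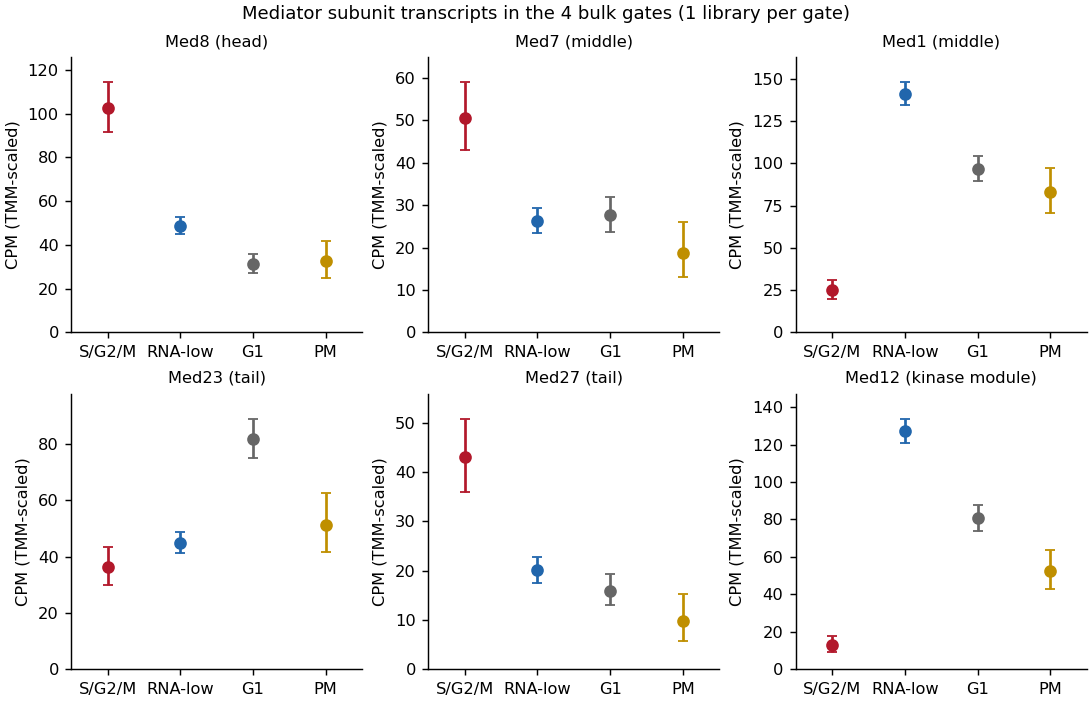
TMM-scaled CPM (vertical axis, from 0) of the 6 Mediator subunit transcripts in the S/G2/M, RNA-low, G1 and PM bulk libraries. Each point is 1 library and each bar its 95% Poisson interval on estimated fragments. Med12 has its lowest point in S/G2/M (13.0 CPM, against 127 in RNA-low), and Med8 its highest (103 CPM, against 48.7 in RNA-low).

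Med12 (row Smed-Med12_SmedASXL_016893) encodes the kinase module subunit that in mammals activates CDK8 together with cyclin C. It stood at 13.0 CPM (9.31 to 17.6) in S/G2/M, 127 (121 to 134) in RNA-low, 80.7 (74.0 to 87.9) in G1 and 52.4 (42.6 to 63.8) in PM. No 2 neighbours in that order overlapped in their intervals, and the highest gate was 9.80-fold above the lowest. Med1 (Smed-Med1_SmedASXL_015846), a middle subunit that in mammals binds nuclear receptors, had the same order of gates. Its levels were 24.9 CPM (19.7 to 31.0) in S/G2/M, 141 (134 to 148) in RNA-low, 96.7 (89.4 to 105) in G1 and 82.9 (70.5 to 97.0) in PM. G1 and PM overlapped for Med1, and S/G2/M and RNA-low each stood apart from the rest.

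Med8 (Smed-Med8_SmedASXL_011363) encodes a head subunit. It stood at 103 CPM (91.7 to 114) in S/G2/M, 48.7 (44.8 to 52.9) in RNA-low, 31.4 (27.2 to 35.9) in G1 and 32.5 (24.9 to 41.8) in PM. G1 and PM could not be ordered within counting error. Med7 (Smed-Med7_SmedASXL_009348), a core middle subunit, stood at 50.5 CPM (43.0 to 59.0) in S/G2/M, 26.2 (23.4 to 29.3) in RNA-low, 27.6 (23.8 to 31.9) in G1 and 18.7 (13.0 to 25.9) in PM. S/G2/M stood apart from the next gate, and each of the other neighbours overlapped.

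Med27 and Med23 are placed in the tail of the mammalian complex, and they had opposite places in S/G2/M. Med27 (Smed-Med27_SmedASXL_005887) stood at 43.0 CPM (36.0 to 50.8) in S/G2/M, 20.0 (17.6 to 22.7) in RNA-low, 15.9 (13.0 to 19.3) in G1 and 9.69 (5.77 to 15.3) in PM. Only S/G2/M stood apart from its neighbour. Med23 (Smed-Med23_SmedASXL_015133) stood at 36.2 CPM (29.9 to 43.5) in S/G2/M, 44.8 (41.1 to 48.8) in RNA-low, 81.9 (75.1 to 89.1) in G1 and 51.2 (41.5 to 62.5) in PM. G1 stood apart for Med23, while neighbours among the remaining gates overlapped. Each of these orders rests on 1 library per gate.

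The 4 other Mediator genes varied less. Med14, the scaffold that joins head, middle and tail, had 88.6 CPM in S/G2/M, 89.1 in RNA-low, 82.0 in G1 and 63.3 in PM. The kinase gene cdk8 had 31.0 CPM in S/G2/M, 30.7 in RNA-low, 27.6 in G1 and 20.5 in PM. Med19 ran between 29.9 CPM in G1 and 38.1 in RNA-low, and Med31 between 7.06 CPM in PM and 16.0 in S/G2/M. Med31 belongs to the middle. For all 4, every pair of neighbouring gates overlapped in its intervals. The share of all transcripts that do so was not computed. Overlap does not show equal levels. For Med14 in G1 over PM, which are neighbours, the interval of the log2 ratio on estimated fragments was 0.09 to 0.67. Gates further apart in the order did not all overlap, as with Med14 in RNA-low (83.8 to 94.6) and PM (52.5 to 75.7). The highest gate was 1.28-fold (Med19) to 2.26-fold (Med31) above the lowest, against 2.26-fold (Med23) to 9.80-fold (Med12) for the 6 subunits. The median over all 13992 transcripts was 2.68-fold. Since the 6 were chosen with these levels known, the wider range among them is not evidence about Mediator genes as a group.

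S/G2/M was then compared with each other gate by log2 ratios, with 0.5 CPM added to both levels. Calls needed a difference of 2-fold or more and an exact 95% counting interval on reads that left out equality. The intervals printed are those of the CPM ratio on estimated fragments, which are wider. The 3 comparisons share the S/G2/M library, so a subunit that is high or low in it tends to be so in each.

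In S/G2/M against RNA-low, 2 of the 6 subunits were called higher and 2 lower, where 18.1% of 12040 transcripts were called higher and 22.5% lower, 40.6% in all. That background depends on scaling: 2179 were higher and 2710 lower with TMM, 2767 and 2280 with median of ratios, 1543 and 3384 with totals, and 1930 and 3481 with totals without ribosomal RNA. Med12 fell by 3.24 on the log2 scale (interval -3.78 to -2.84), and Med1 fell by 2.48 (-2.85 to -2.18). Med27 (1.08, interval 0.79 to 1.41) and Med8 (1.07, 0.87 to 1.27) were called higher by a small margin, and Med7 (0.93, 0.66 to 1.23) was just short of 2-fold. Both higher calls were lost when libraries were scaled by their totals, with Med8 at 0.84 and Med27 at 0.85, or by totals without ribosomal RNA, with 0.93 and 0.94. Med7 was called higher (1.11) with median-of-ratios scaling. Med23 was at -0.30 (-0.61 to -0.01). The median of the 6 was 0.31, with all transcripts at 0.0045, and lay between subunits 4.33 log2 units apart.

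In S/G2/M against G1, 2 subunits were called higher and 3 lower, where 12.6% of 11895 transcripts were called higher and 18.2% lower, 30.8% in all. The background of 1499 higher and 2169 lower was 2116 and 1814 with median of ratios, 758 and 3126 with totals, and 1037 and 3233 with totals without ribosomal RNA. Med12 (-2.59, interval -3.13 to -2.18), Med1 (-1.94, -2.32 to -1.62) and Med23 (-1.17, -1.48 to -0.88) fell. Med8 (1.69, 1.45 to 1.97) and Med27 (1.41, 1.05 to 1.81) rose. Med7 was at 0.86 (0.56 to 1.19), and it was called higher (1.02) with median-of-ratios scaling. The median of the 6 was -0.15, against 0.07 over all transcripts.

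In S/G2/M against PM, 3 subunits were called higher and 2 lower, where 22.5% of 13002 transcripts were called higher and 25.8% lower, 48.3% in all. The background of 2926 higher and 3357 lower was 3518 and 3056 with median of ratios, 2195 and 3729 with totals, and 1632 and 5771 with totals without ribosomal RNA. Med27 (2.09, interval 1.44 to 2.94), Med8 (1.64, 1.26 to 2.08) and Med7 (1.41, 0.90 to 2.01) rose, and Med12 (-1.97, -2.58 to -1.47) and Med1 (-1.72, -2.15 to -1.34) fell. Med7 was below 2-fold (0.98) with totals without ribosomal RNA. Med23 was at -0.49 (-0.90 to -0.09). The median of the 6 was 0.46, against 0.09 over all transcripts.

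Of the 4 other Mediator genes none was called in S/G2/M against RNA-low, where they ran from -0.09 (Med19) to 0.38 (Med31), with cdk8 at 0.02 and Med14 at -0.01. None was called against G1 (0.11 for Med14 to 0.72 for Med31). Against PM, Med31 was called higher (1.12, interval 0.28 to 2.17) and the other 3 ran from 0.16 to 0.58. The call of Med31 was lost with totals (0.95), totals without ribosomal RNA (0.71) and a pseudocount of 5 CPM (0.80), alternatives applied to these genes after seeing the data. Over all 10 named Mediator genes, 2 were called higher and 2 lower against RNA-low, 2 and 3 against G1, and 4, Med31 included, and 2 against PM.

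**Figure D2:**
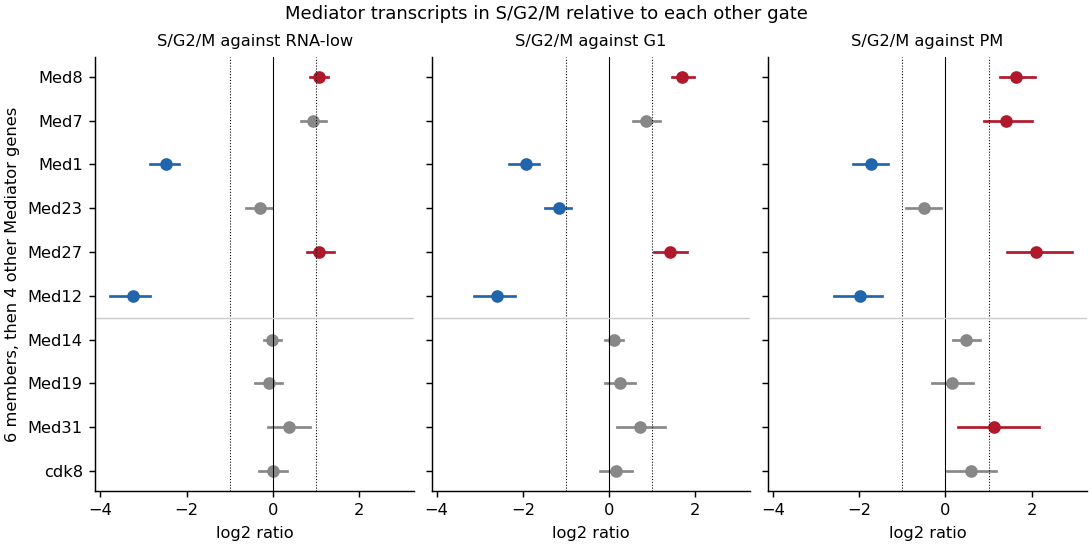
Log2 ratio of CPM + 0.5 (horizontal axis) in S/G2/M over RNA-low, G1 and PM for the 6 subunits (above the grey line) and 4 other Mediator genes (below it). Bars are 95% counting intervals on estimated fragments and dotted lines mark 2-fold. Red marks calls as higher, blue calls as lower and grey no call. Med12 and Med1 lie left of the 2-fold line in all 3 panels, and Med8 and Med27 right of it.

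The gates other than S/G2/M differed less in these transcripts. The 6 were chosen by their direction in S/G2/M, so this contrast is a description and no separate result. In RNA-low against G1 none of the 6 was called, where 16.9% of 11890 transcripts were called, 7.12% higher and 9.78% lower. The ratios ran from -0.86 (Med23, interval -1.04 to -0.69) to 0.65 (Med12, 0.51 to 0.80). Med8 was at 0.63, Med1 at 0.54, Med27 at 0.32 and Med7 at -0.07. Intervals on estimated fragments included equality for Med7 and Med27.

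In RNA-low against PM 2 of the 6 were called higher and none lower, where 33.8% of 13069 transcripts were called, 14.6% higher and 19.2% lower. With totals without ribosomal RNA 1207 transcripts were higher and 3947 lower, against 1907 and 2508 with TMM. Med12 was called at 1.27 (0.99 to 1.59) and Med27 at 1.01 (0.36 to 1.82). Totals without ribosomal RNA ended both calls, with Med12 at 0.98 and Med27 at 0.73, and median-of-ratios scaling ended that of Med27 (0.97). The others ran from -0.19 (Med23) to 0.76 (Med1).

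In G1 against PM none of the 6 was called, where 22.7% of 12953 transcripts were called, 7.93% higher and 14.7% lower. With totals 1537 were higher and 1733 lower, and with totals without ribosomal RNA 885 and 3072, against 1027 and 1909 with TMM. The ratios ran from -0.05 (Med8) to 0.69 (Med27), and Med23 was at 0.67 (0.36 to 1.00). None of the 4 other Mediator genes was called in these 3 comparisons.

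Ratios between 2 subunits within a library do not depend on how the library was scaled. Transcript lengths were not available, so such a ratio shows no excess of one subunit over another, and only its change between gates is read. For each read of Med12 there were 7.90 reads of Med8 in S/G2/M, against 0.383 in RNA-low, 0.389 in G1 and 0.621 in PM. Relative to Med12, Med8 was higher in S/G2/M than in RNA-low by 4.37 on the log2 scale (normal-approximation 95% interval on estimated fragments 3.88 to 4.86). For Med27 there were 3.31 reads per read of Med12 in S/G2/M, against 0.157 in RNA-low, 0.197 in G1 and 0.185 in PM. Med12 had the deepest fall in S/G2/M of the named Mediator genes. Ratios to it are therefore highest there for every other one, also for Med14 and cdk8, whose own levels were nearly equal in S/G2/M and RNA-low.

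Both subunits that were low in S/G2/M stayed closer to each other than to the rest. Reads of Med1 per read of Med12 were 1.91 in S/G2/M, against 1.11 in RNA-low, 1.20 in G1 and 1.58 in PM, a spread of 1.73-fold. Relative to Med12, Med1 was higher in S/G2/M than in RNA-low (0.79, interval 0.23 to 1.34) and in G1 (0.68, 0.11 to 1.25). Against PM the value was 0.27, with an interval that included equality (-0.38 to 0.93). Among the subunits high in S/G2/M, reads of Med8 per read of Med27 were 2.39 in S/G2/M, against 2.43 in RNA-low, 1.97 in G1 and 3.36 in PM, a spread of 1.70-fold. Reads of Med7 per read of Med27 spread by 1.64-fold.

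Within the kinase module the genes parted. Reads of Med12 per read of cdk8 were 0.419 in S/G2/M, against 4.15 in RNA-low, 2.92 in G1 and 2.55 in PM, a spread of 9.91-fold. Reads of Med14 per read of cdk8 stayed between 2.86 in S/G2/M and 3.08 in PM, a spread of 1.08-fold. The tail subunits Med23 and Med27 spread by 6.27-fold, from 0.843 reads of Med23 per read of Med27 in S/G2/M to 5.29 in PM.

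**Figure D3:**
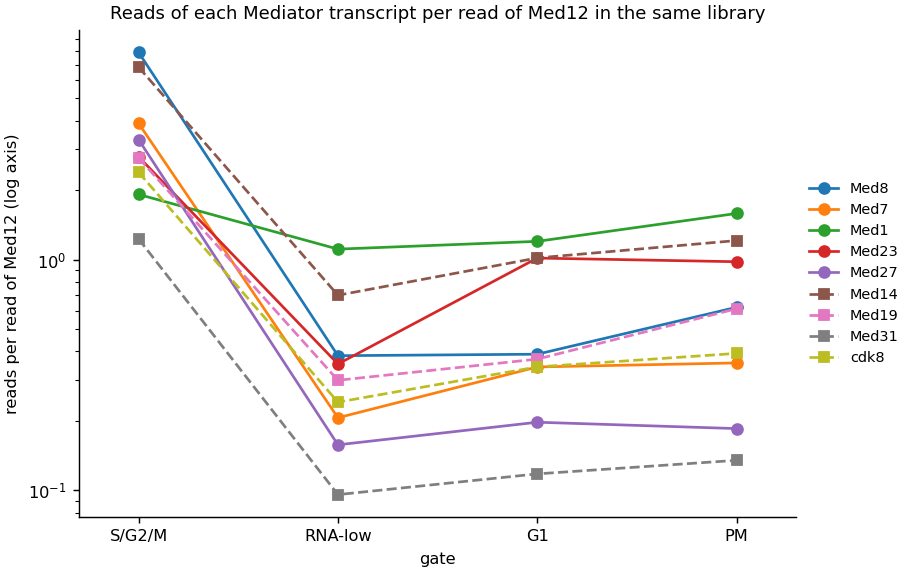
Reads of each Mediator transcript per read of Med12 in the same bulk library (vertical log axis) in S/G2/M, RNA-low, G1 and PM. Circles with solid lines are the other 5 members and squares with dashed lines the 4 other Mediator genes. All 9 lie highest in S/G2/M, which follows from Med12 having the deepest fall there of these genes. Med1 moves least, from 1.11 in RNA-low to 1.91 in S/G2/M.

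The named transcripts with the most similar profile over the 4 gates were found among 112 candidates, which leave out the 6 subunits, by the root mean square difference of log2 levels, each centred on its own mean. For Med1 these were 1 of the FoxJ1-3 transcripts (0.08), the FGF receptor-like gene ndk (0.12) and the chromatin remodeller gene chd4 (0.12), where the median candidate lay at 0.98. For Med12 the same 3 candidates came first, chd4 (0.24), ndk (0.33) and FoxJ1-3 (0.37), and the subunit Med1 lay at 0.31 from it. Levels of chd4 were 92.2 CPM in S/G2/M, 611 in RNA-low, 362 in G1 and 285 in PM. FoxJ1-3 had 1.94 CPM in S/G2/M, against 11.6 in RNA-low, a level at which the added 0.5 CPM weighs on the profile.

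TMEM194A, which in animals encodes a nuclear envelope protein, came first for Med27 (0.11) and second among the candidates for Med7 (0.18) and Med8 (0.29). The subunit Med27 lay at 0.26 from Med8. Levels of TMEM194A were 33.8 CPM in S/G2/M, 16.8 in RNA-low, 15.2 in G1 and 8.82 in PM. Ku80, a DNA end-joining gene, came first for Med7 (0.13), and the Mediator gene Med31 (0.21) came next after TMEM194A. The secreted Frizzled-related gene sfrp2 (0.18) was nearest to Med8, followed after TMEM194A by porcnA (0.32). For Med27 a Wnt gene, wntP-3 (0.18), and tdrd112 (0.23) followed. For Med23 the first were porcn-B at 0.33, fused at 0.35 and reticulocalbin-1 at 0.36, where the median candidate lay at 0.82. Its nearest candidate lay further off than that of any other subunit, the next being chd4 for Med12 (0.24). Likeness over 4 points is a description and carries no test.

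**Figure D4:**
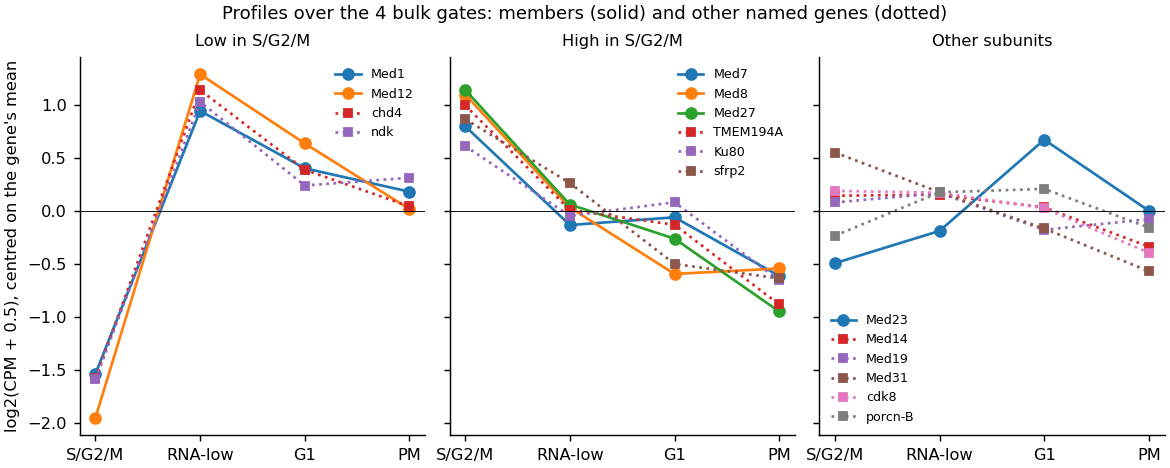
Log2(CPM + 0.5) centred on each gene's mean (vertical axis) in the S/G2/M, RNA-low, G1 and PM bulk libraries. Solid lines with circles are the 6 subunits and dotted lines with squares are other named genes. Med1 and Med12 run with chd4 and ndk, Med7, Med8 and Med27 run with TMEM194A, Ku80 and sfrp2. Med23 peaks in G1, and porcn-B, its nearest gene, has nearly equal levels in RNA-low (41.9 CPM) and G1 (42.8 CPM).

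The gates also differed in the markers of the cells they held. In bulk libraries, fewer cells of a type and less transcript per cell cannot be told apart. The 3 replication and mitosis genes PCNA, mcm2 and CyclinB2 summed to 896 CPM in S/G2/M, against 89.3 in RNA-low, 242 in G1 and 79.6 in PM. The 4 pan-neoblast genes summed to 10246 CPM in S/G2/M, 7439 in RNA-low, 5725 in G1 and 3399 in PM, and the 18 early epidermal progeny transcripts to 6405, 1860, 29657 and 20171 CPM in the same order. The neuronal genes COE and elav-2 summed to 17.6 CPM in S/G2/M, 139 in RNA-low, 47.3 in G1 and 38.0 in PM. That order is the order of Med1 and Med12. Of all transcripts with at least 5 CPM in a gate, 30.6% were highest in RNA-low and 34.3% lowest in S/G2/M. Epidermal vim-1 (2.02 to 112 CPM) and muscle titin (0.51 to 12.9 CPM) were highest in PM. The remaining lists ran from 103 to 165 CPM (intestine), 4.53 to 24.7 (gamma neoblast) and 48.5 to 96.0 (cathepsin-positive and parenchymal). The secretory marker mucin was at 0 reads in S/G2/M and PM, and 1 progeny transcript was at 0 in RNA-low. Ribosomal RNA took 21.9% of reads in S/G2/M, 16.9% in RNA-low, 16.8% in G1 and 35.1% in PM. The part of cell composition in the levels of the subunits was not tested.

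In the single RNA-low cells, Mediator transcripts were read in a minority. Cells with at least 500 detected transcripts were kept, 79 of 96, with a median of 2075 transcripts and 152963 reads other than ribosomal RNA. At least 1 of the 6 subunits was read in 29 of the 79 (36.7%, exact 95% interval 26.1 to 48.3), and in 0 of the 17 cells left out, which allows a share of up to 17.6% if a count of 0 is taken to allow 3. Reads without molecular identifiers are not independent molecules, so intervals cover counting error over cells only. The median share of cells over the 6 subunits was 5.06%, against 6.33% (quartiles 3.80 and 12.7) over 10700 transcripts with at least 5 CPM in the RNA-low bulk library. These transcripts were not matched to the levels of the 6. A cell with no read is the usual outcome for a transcript with at least 5 CPM in that library, and it does not show that the cell lacked it.

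Med1 was read in 16 kept cells (20.3%, interval 12.0 to 30.8) and Med12 in 10 (12.7%, 6.24 to 22.0). Med7 and Med23 were read in 4 each (5.06%, 1.40 to 12.5), Med8 in 3 (3.80%, 0.79 to 10.7) and Med27 in 2 (2.53%, 0.31 to 8.85). Of the other Mediator genes Med19 was read in 7 cells, Med14 in 5, cdk8 in 2 and Med31 in 1. Med1 or Med12, the subunits low in S/G2/M, were read in 24 kept cells (30.4%, 20.5 to 41.8). Med7, Med8 or Med27, the subunits high in S/G2/M, were read in 9 (11.4%, 5.34 to 20.5). These groups were formed from bulk levels, so the difference is no separate support for the division. In the RNA-low bulk library Med1 and Med12 stood at 141 and 127 CPM. Med8, Med7 and Med27 stood there at 48.7, 26.2 and 20.0. Shares of different genes also depend on transcript length and on how well each was captured, which were not measured.

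The number of reads in a positive cell differed widely. Med12 had 1 to 4 reads in 5 cells and 193, 231, 249, 319 and 800 reads in the other 5, with none between. Med1 had 1 to 59 reads in its 16 cells, with a median of 9.5. Med23 had 1, 3, 3 and 628 reads, so that 98.9% of its 635 reads came from a single cell. Med27 had 7 and 198 reads, Med8 5, 12 and 48, and Med7 1, 9, 28 and 68. At 5 or more reads the numbers were 12 cells for Med1, 5 for Med12, 3 for Med7 and Med8, 2 for Med27 and 1 for Med23.

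**Figure D5:**
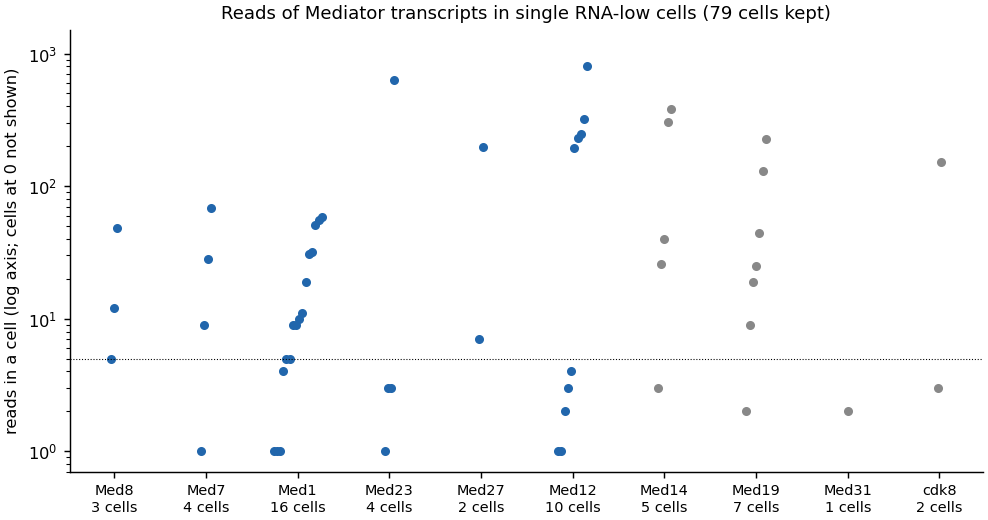
Reads of each Mediator transcript (vertical log axis) in every single RNA-low cell that had at least 1, with the number of such cells under each name. Blue points are the 6 subunits and grey points the 4 other Mediator genes, and the dotted line marks 5 reads. Med12 falls into 5 cells at 1 to 4 reads and 5 cells at 193 to 800, while the 16 cells of Med1 run from 1 to 59.

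Few cells held more than 1 subunit. Of the 79 cells, 50 had none of the 6, 21 had 1, 6 had 2 and 2 had 3. The median number of detected transcripts was 1804 in cells with none, 2436 in those with 1, 2852 in those with 2 and 5048 in those with 3. A subunit was read in 5 of the 27 cells with fewest detected transcripts (531 to 1712), in 8 of the 26 cells between, and in 16 of the 26 with most (2439 to 7946). Med1 was read in 1, 4 and 11 cells of these sets and Med12 in 2, 4 and 4. Med1 and Med12 were read together in 2 cells, as were Med12 and Med23. When each of 73 cells was thinned to 50000 reads other than ribosomal RNA, leaving out 6 shallower cells, the expected share with any of the 6 was 34.4%. It was 17.7% for Med1 and 10.9% for Med12.

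Med1 (11 and 5 cells), Med12 (6 and 4) and Med8 (2 and 1) were read in cells with and without the neoblast gene piwi-1. Med7 (4 cells), Med23 (4) and Med27 (2) were read only in cells with it. Since piwi-1 was read in 51 of the 79 kept cells, counts this small do not show that a subunit is confined to them. The share of other rarely read transcripts found only there was not computed. Cells with piwi-1 had medians of 2213 detected transcripts and 180397 reads other than ribosomal RNA. Those without had 2013 and 137552, and the part of this depth was not tested. At least 1 subunit was found in 21 of 51 cells with piwi-1 reads and 8 of 28 without. For chd4 the numbers were 26 of 54 cells with its reads and 3 of 25 without, at medians of 2382 and 1240 transcripts. Med1 was in 14 of the cells with chd4 and 2 of those without, and Med12 in 9 and 1. Depth by detected transcripts moved with chd4 status, and its part in these numbers was not tested. The reads other than ribosomal RNA did not move with it in the same way, at medians of 151908 and 156620.

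Summed over the kept cells, the 6 subunits were each below their level in the RNA-low bulk library, both taken as CPM of reads other than ribosomal RNA. So were the 4 other Mediator genes, with Med14 for example at 52.5 CPM in the summed cells and 111 in bulk. The share of all transcripts below their bulk level was not computed, so this is not read as a trait of the 6. Med12 stood at 125 CPM in the summed cells and 159 in bulk, and Med23 at 44.0 and 55.9. Med27 was at 14.2 and 24.9 CPM, and Med7 at 7.35 and 32.7. Med1 was at 21.1 and 176 CPM, and Med8 at 4.51 and 60.7. The kits differed between the cells and the bulk library. The summed levels depend on the denominator. Leaving out also the 47 transcripts read in at least 90 cells puts Med12 at 192 CPM and Med23 at 67.5 in the summed cells. That was done in the single-cell totals only, so these values cannot be set against the bulk levels. Without the cell with most reads of the gene, an alternative added after seeing the data, the summed cells gave 70.3 CPM for Med12, 17.3 for Med1, 2.70 for Med7, 1.22 for Med8, and 0.49 for each of Med23 and Med27.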

How the data were processed

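The values used are whole-number counts of reads for each transcript, which the authors deposited without normalization. Per the labels, bulk RNA was extracted in Trizol and made into TruSeq libraries, and single cells were prepared with Smart-seq2. The submitters' processing notes list Bowtie2 and bcl2fastq 1.8.3. Counting tool, filters and transcript reference: not given in the sources used here. Reads of near-identical transcripts may therefore be uncertain. RNA-low in bulk was read from the column named G0, since G0 also starts the names of the single RNA-low cells. The members and lists were chosen with earlier results of these data known.

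TMM factors came from edgeR 4.0.16 under R 4.3.3, and all else was computed in Python 3.11.15 with scipy 1.17.1. Comparisons kept transcripts that reached 5 CPM in 1 of the gates compared, and all 6 members and 4 other Mediator genes passed in all 6 comparisons. Transcripts per read count peaked at 21 reads in S/G2/M, 5 in RNA-low, 9 in G1 and 25 in PM, and reads were divided by that number to estimate fragments, a rough estimate. Intervals of ratios are exact conditional binomial ones, of the CPM without the added 0.5, and those of shares are Clopper-Pearson. The call rule was tested on simulated data, with independent reads, known library sizes and changes well above 2-fold. That says nothing about calls near 2-fold, or about amplified reads and uncertain scaling. The 6 subunits were always named, with the 3 named transcripts most alike to each (at least 5 CPM in a gate). Of the polymerase II machinery genes searched by name, those found among the named rows were Med14, Med19, Med31 and cdk8. Transcripts without a gene name could not be searched, so the other genes may still be in the tables. No 2 cells had identical counts.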

Additional observations from a re-analysis of the deposited data

How the results depend on the processing

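Of 36 ratios of subunits between gates 16 were called, and over 140 recomputations of these none changed sign. None could have done so. The filters and the interval leave a ratio as it is, and a pseudocount changes its size only. The scalings shift it by less than the 2-fold that a call needs. Changes of setting ended 10 calls and added 2, all given above except that a pseudocount of 5 CPM ended those of Med27 against RNA-low in S/G2/M (0.94) and of Med27 in RNA-low against PM (0.77). Other scalings shifted every log2 ratio with S/G2/M by 0.13 to 0.18 (median of ratios), -0.32 to -0.18 (totals) and -0.44 to -0.14 (totals without ribosomal RNA). In S/G2/M against RNA-low, the number called higher was 0 with either kind of total, against 2, and 1 with a pseudocount of 5 CPM or a filter of 50 CPM. That filter left 4 subunits with a median of -0.77. In S/G2/M against G1, it left 5 with 1 called higher and a median of -1.17, and totals gave a median of -0.47. Against PM it left 5 with a median of -0.49. In RNA-low against PM, the number called higher was 1 with median of ratios, a pseudocount of 5 CPM or the filter of 50 CPM, and 0 with totals without ribosomal RNA. Each change of a count or median under the 50 CPM filter comes from fewer subunits kept. With totals, the lowest gate of Med8 was PM in place of G1, the 1 change among 36 checks of the highest and lowest gates under other scalings. Under 4 other filters, depths and thresholds the share of cells with any of the 6 ran from 26.6% to 41.2%. Levels in the summed cells moved with the denominator for all 6 subunits, Med12 for example being at 15.8 CPM of all reads. No paired analysis was possible because each gate has 1 library. Depth limits PM most, where Med27 rests on an estimated 18.3 fragments.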
